A study of Homo sapiens with 16 samples.

Results

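The regions described here are stretches of open chromatin at the ends of protein-coding genes in progenitors and neurons of human brain organoids. Peaks of all 16 deposited lists on chromosomes 1 to 22 and X that shared at least 1 base were joined, and a joined region was kept when it came within 1 kb of either end of a protein-coding gene of the RefSeq annotation. This gave 21713 regions out of 321056, or 6.76%. The choice used position only, and the number of libraries that held a region was not a criterion. Regions held by more libraries tend to be wider, though, and a wider region comes within 1 kb of a gene end more easily. A region counts as held by a library that has at least 1 peak overlapping it. The merged region is what lies within 1 kb of the gene end, and the peak of a given library inside it may lie farther away.

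The assay was ATAC-seq: the transposase Tn5 cuts and tags DNA where nucleosomes leave it exposed. The human embryonic stem cell line H9, which is established and widely used, was grown into telencephalic organoids enriched in dorsal tissue, whose cells were sorted to look for accessibility particular to progenitors or neurons. All groups carried the same pair of reporters in this line, whose genotype is labelled WT: P2A-EGFP in place of the stop codon on 1 allele of SOX2, and dTomato driven by the human SYN1 promoter at the AAVS1 locus. The 8 groups were progenitors (SOX2::EGFP+) and neurons (dTomato+) at days 40, 60, 90 and 120, with 2 libraries each from nuclei treated with Tn5 for 30 minutes. The sort thus went by reporter fluorescence, not by cell type itself. There was 1 reporter line, and nothing says whether replicate libraries came from separate organoid batches, so the p-values rest on the variation among these libraries only, part or all of it possibly technical.

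A gene's start usually carries its promoter, where the transcription machinery assembles, and most promoters of broadly expressed genes lie in CpG islands that stay free of nucleosomes in many cell types. Promoters poor in CpG tend to open in particular cells only. The other end of a gene, where transcripts are cleaved and polyadenylated, is less often open, and a peak there can belong to an enhancer or to a neighbouring gene. In the dorsal telencephalon, progenitors such as radial glia line the ventricle and depend on SOX2, and their neurons switch on genes for axons and synapses.

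Promoter sequences of 6 genes show the range met among these regions. They are RefSeq windows on GRCh38.p14 (chromosome coordinates as in hg38), from 250 bases before to 50 bases after the annotated start. Each is printed 5′ to 3′ as the RefSeq table gives it, in lower case, with every CpG in capitals. SH3TC2 and TAAR5 start in regions that were open in progenitors and in no neuron library, NTSR1 and SLC8A1 in regions that were open in neurons and in no progenitor library, and SOX2 and DCX are a progenitor and a neuronal gene that were open at the start in all 16 libraries.
SH3TC2 (chr5:149063013-149063312, minus strand): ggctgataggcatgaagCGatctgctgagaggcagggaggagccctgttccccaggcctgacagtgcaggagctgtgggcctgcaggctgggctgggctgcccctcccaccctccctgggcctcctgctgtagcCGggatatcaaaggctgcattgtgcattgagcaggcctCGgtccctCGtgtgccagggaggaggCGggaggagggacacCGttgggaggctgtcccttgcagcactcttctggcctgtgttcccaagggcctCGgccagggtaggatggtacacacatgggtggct
TAAR5 (chr6:132616698-132616997, minus strand): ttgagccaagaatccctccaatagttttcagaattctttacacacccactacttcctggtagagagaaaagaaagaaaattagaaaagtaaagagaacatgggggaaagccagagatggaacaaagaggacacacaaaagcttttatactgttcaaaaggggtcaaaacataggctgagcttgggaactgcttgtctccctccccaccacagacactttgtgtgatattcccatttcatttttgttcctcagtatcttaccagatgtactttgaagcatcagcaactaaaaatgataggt
NTSR1 (chr20:62708586-62708885, plus strand): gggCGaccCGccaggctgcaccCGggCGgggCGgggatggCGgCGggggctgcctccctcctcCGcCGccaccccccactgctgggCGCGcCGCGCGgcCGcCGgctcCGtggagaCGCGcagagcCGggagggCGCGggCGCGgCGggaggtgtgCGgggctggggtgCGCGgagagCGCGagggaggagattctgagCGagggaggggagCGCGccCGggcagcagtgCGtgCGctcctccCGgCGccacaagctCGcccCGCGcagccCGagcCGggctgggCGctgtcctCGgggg
SLC8A1 (chr2:40512386-40512685, minus strand): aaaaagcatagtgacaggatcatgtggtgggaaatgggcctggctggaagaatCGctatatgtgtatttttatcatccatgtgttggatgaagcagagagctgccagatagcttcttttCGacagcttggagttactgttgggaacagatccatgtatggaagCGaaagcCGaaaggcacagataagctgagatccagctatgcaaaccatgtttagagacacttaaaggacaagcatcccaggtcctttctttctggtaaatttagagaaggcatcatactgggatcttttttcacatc
SOX2 (chr3:181711675-181711974, plus strand): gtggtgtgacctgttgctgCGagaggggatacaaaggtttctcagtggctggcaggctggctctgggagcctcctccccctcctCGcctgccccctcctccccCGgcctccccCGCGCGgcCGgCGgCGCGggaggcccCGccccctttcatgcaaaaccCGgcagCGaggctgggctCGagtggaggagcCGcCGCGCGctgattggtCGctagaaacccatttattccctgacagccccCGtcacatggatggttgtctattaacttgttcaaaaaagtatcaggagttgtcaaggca
DCX (chrX:111412143-111412442, minus strand): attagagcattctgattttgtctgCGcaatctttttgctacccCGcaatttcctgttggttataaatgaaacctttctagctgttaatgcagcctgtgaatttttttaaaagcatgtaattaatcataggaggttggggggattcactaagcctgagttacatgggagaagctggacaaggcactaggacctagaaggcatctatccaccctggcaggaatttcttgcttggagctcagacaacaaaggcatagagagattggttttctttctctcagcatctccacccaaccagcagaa
These windows hold 7 CpG in SH3TC2, 0 in TAAR5, 45 in NTSR1, 4 in SLC8A1, 20 in SOX2 and 2 in DCX. The pair open in progenitors thus has few CpG, the pair open in neurons has 1 window dense in CpG and 1 that is not, and DCX was open in all libraries with a window nearly free of CpG. Of the motifs searched on both strands, TATAAA is in the windows of TAAR5 and DCX, CCAAT in those of TAAR5, SOX2 and DCX, GGGCGG in those of NTSR1 and SOX2, and CANNTG in those of SH3TC2, TAAR5, SLC8A1 and SOX2. Over all 13791 promoters of that length compared, TATAAA was in 10%, CCAAT in 37.1%, GGGCGG in 58.5% and CANNTG in 64.8%. A match describes the letters of the window only.

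Regions at gene ends were far more often shared by all libraries than regions elsewhere. Of the 21713, 10739 (49.5%) had a peak in all 16 libraries, against 14058 of the 299343 other regions (4.7%). At the opposite extreme, 3243 (14.9%) were found in 1 library, against 34.0% of the others. Between these, 6573 were held by 2 to 14 libraries and 1158 by 15. Regions in all 16 libraries had a median width of 1914 bases, those in 2 to 14 libraries 990 bases, and those in 1 library 292 bases. Number and width are not independent, since each peak that joins a merged region can widen it. Width also makes it easier to come within 1 kb of a gene end, and its part in the shares above was not tested.

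**Figure D1:**
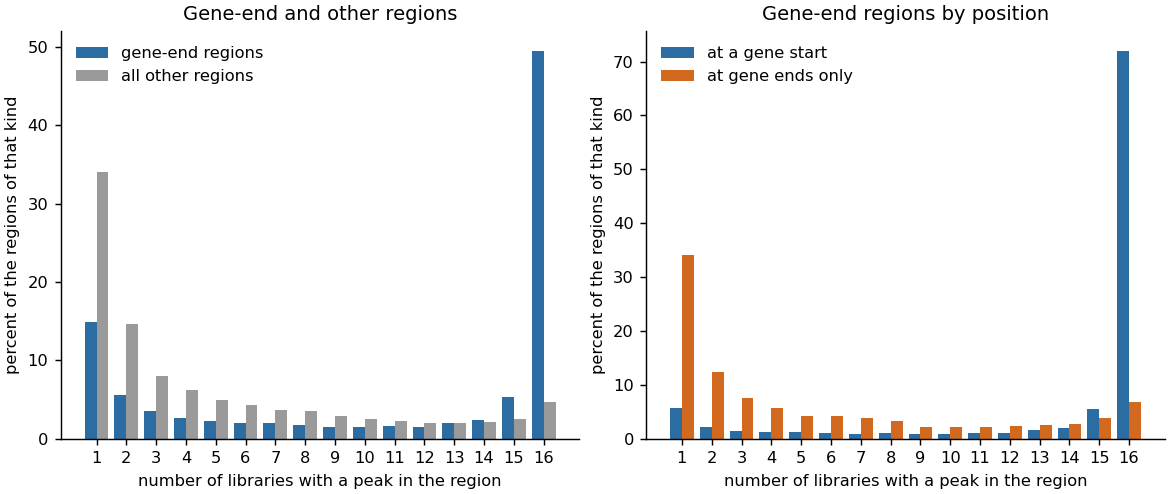
Share of regions (percent of the regions of that kind, y axis) by the number of libraries with a peak in them (x axis), for gene-end and other regions on the left and for gene-end regions at a gene start or at gene ends only on the right. The bar at 16 libraries reaches 49.5% for gene-end regions on the left and 72.0% for starts on the right, and regions at gene ends only are instead most often in 1 library.

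The regions that all libraries shared lay at gene starts. Strand was known for 15812 of the 19970 genes, and chromosome 8, with few known strands, was left out of this split. Of 11498 regions at a start, 72.0% were held by all 16 libraries and 5.76% by 1. Of 5492 regions at gene ends only, 6.9% were held by all 16 and 34.0% by 1. Read the other way, 95.6% of the shared regions of known strand lay at a start, against 26.1% of those in 1 library. Regions within 1 kb of the starts of 2 or more genes, as at promoters that face away from each other, were shared by all libraries in 92.3% of 1240 cases. Of the 10258 within 1 kb of 1 gene start, 69.6% were. By chromosome the share in all 16 libraries ran from 40.0% on chromosome 22 to 54.0% on chromosome 18.

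Seen by gene, with each library's own peaks within 1 kb of an end, 11707 of 19970 protein-coding genes (58.6%) had a peak in all 16 libraries, 5158 (25.8%) in 1 to 15 and 3105 (15.5%) in none. A gene is measured here at the outer ends of its annotation, so an active start inside the annotated span does not count: CACNA1C, a calcium channel gene, and SLC1A3, a glutamate transporter gene of radial glia, had no peak at an end in any library.

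Gene families, gathered by symbol, ran from nearly always open to nearly never. Genes needed by every cell stood at the top: 96 of 100 cytosolic ribosomal protein symbols (which take in the RPS6K kinases by name) had an end peak in all 16 libraries, as did 73 of 77 mitochondrial ribosomal proteins, 44 of 46 genes of respiratory complex I and 32 of 33 RNA polymerase subunits. Of 517 zinc finger genes named ZNF, 428 were open in all 16. Synaptotagmins, the calcium sensors of vesicle release, were open in all libraries in 12 of 17 cases, and glutamate receptor genes in 16 of 24. None of the 19 SOX factors lacked a peak in every library, and 11 were open in all 16.

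Families known from other tissues had larger closed shares. No library had an end peak at 332 of 392 olfactory receptor genes, 31 of 39 beta-defensins, 15 of 17 type I interferons or 42 of 52 genes matched as MAGE, GAGE, SSX or XAGE, where the 1 gene open in all 16 libraries was SSX2IP, which shares only the prefix. Keratins and cytochromes P450 were closed less widely, with no peak in any library at 26 of 55 and 23 of 56 genes and a peak in some libraries at 27 and 22. Of 94 keratin-associated protein genes, 54 had none. The HOX genes, which pattern the body axis behind the forebrain, stood apart in a different way: all 39 had a peak in at least 1 library, yet only 8 had one in all 16 (HOXD13, HOXD9, HOXD8, HOXD1, HOXA3, HOXA13, HOXC10 and HOXB2). Per library, between 12 and 34 HOX genes were open. GABA-A receptor genes were similar, with 6 of 19 open in all libraries and 12 in some.

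**Figure D2:**
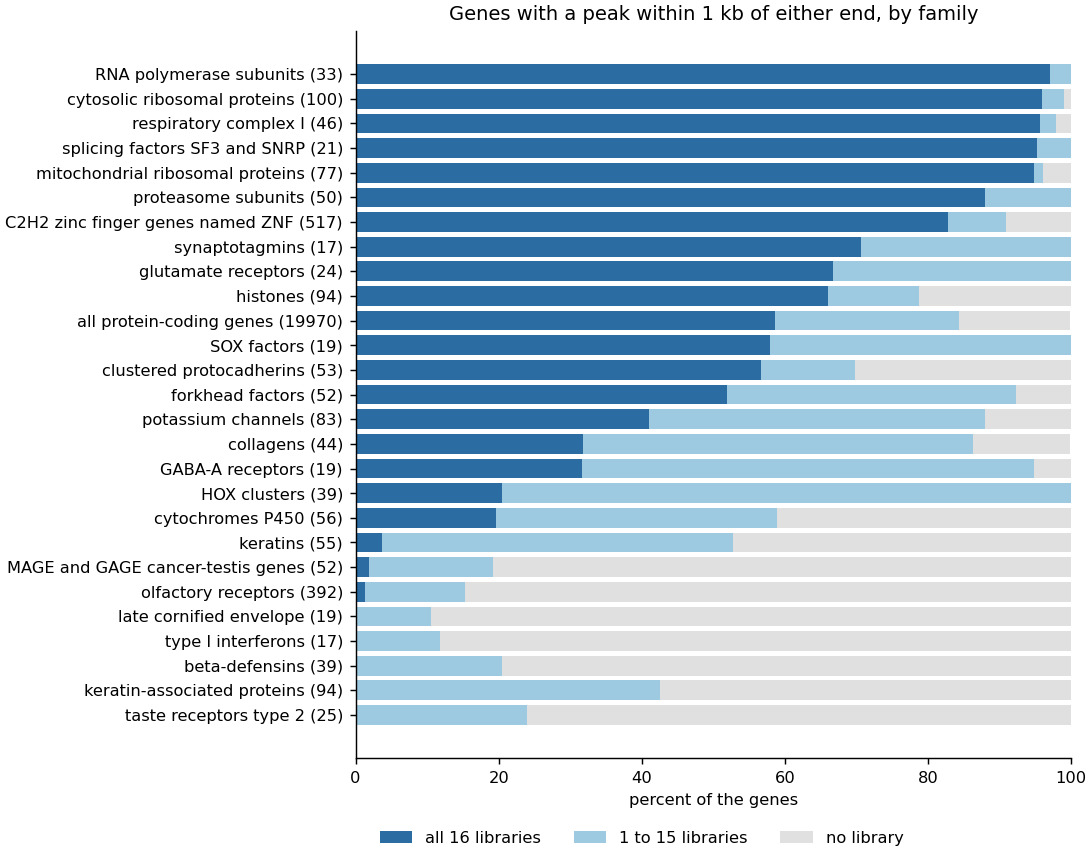
Percent of the genes of each family (x axis) with a peak within 1 kb of either end in all 16 libraries, in 1 to 15 or in none, with the number of genes in brackets. The bars run from 97.0% of RNA polymerase subunits in all 16 libraries to 0.0% of type I interferons, with all protein-coding genes at 58.6%.

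Promoter windows followed the same order. CpG number had a median of 27 in windows of starts open in all 16 libraries (8494 promoters), 13 where 1 to 15 libraries had a peak (2788) and 4 where none had (2509). Of promoters with 0 to 4 CpG, 5.19% were open in all 16 libraries, and of those with 20 to 29 CpG, 84.5%. GGGCGG was in 72.4% of the windows open in all libraries and in 19.3% of those open in none, and TATAAA in 5.34% and 23.6%. The genes whose start lay in a region called more often in progenitors (33 promoters) had a median of 3 CpG, and those called in neurons (20 promoters) 6. Both are below the 13 of starts open in 1 to 15 libraries and nearer to the closed class than to the shared one. Regions in all 16 libraries could not be called.

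Single libraries held between 12160 and 15969 of the regions. The lowest was progenitor day 120 replicate 2, whose whole list also covered the fewest bases, 36.9 Mb against 54.8 to 104 Mb in the others, and which alone lacked 845 regions that the other 15 libraries all held. Progenitors held 14873 ± 1207.9 regions and neurons 14809.5 ± 781.0 (SD, n = 8 each), a difference inside the spread between libraries (exact permutation p = 0.913, the same after adjustment). Late libraries, of days 90 and 120, held fewer than early ones, of days 40 and 60, by 920 in progenitors and 708 in neurons, with overlapping ranges (n = 4 against 4, exact permutation adjusted p = 0.808 for both). Over the 9 tests of this kind, which also took the percent of covered bases at gene ends and the percent of held regions at starts, adjusted p ran from 0.808 to 0.913, all two-sided. The lists give no read numbers, so depth is unknown and only its trace in the covered length can be seen.

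**Figure D3:**
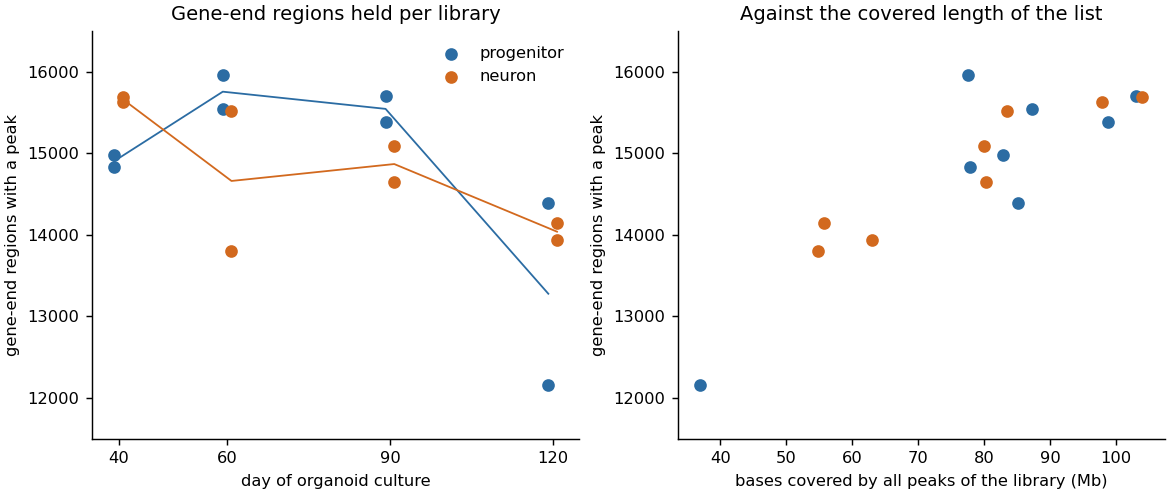
Number of gene-end regions with a peak in each library (y axis, not from 0) against the day of culture on the left, where lines join group means, and against the bases covered by all peaks of the library in Mb on the right. The library at 12160 regions and 36.9 Mb lies below all others on both axes.

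The 2 libraries of a group agreed on most of these regions. Both libraries held 68.1% of the gene-end regions in progenitors at day 90, the highest value, and 54.2% in progenitors at day 120, the lowest. Among the regions a group held at all, the share found in 1 of its 2 libraries ran from 9.3% in progenitors at day 90 to 20.3% in progenitors at day 120, and from 28.6% to 56.1% over the same groups for regions away from gene ends. Few regions were found in both libraries of 1 group and in no other library: 78, 39, 19 and 20 in progenitors at days 40, 60, 90 and 120, and 181, 20, 23 and 22 in neurons. These are 0.0875% to 0.834% of the gene-end regions, where 0.214% to 3.87% of the other regions had such a pattern, with neurons at day 40 highest in both. The reverse, absent from both libraries of a group and present in all 14 others, was met 96 times in progenitors at day 120 and 24 times or fewer in each other group. Of the 299343 other regions, 595 had this pattern in progenitors at day 120 and 865, the most, in progenitors at day 40.

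Most gene-end regions were open in both populations. At least 1 library of each held 16537 of them (76.2%, against 38.2% of the other regions). Found in progenitors only were 2349 (10.8%, against 27.2% of the other regions), and in neurons only 2827 (13.0%, against 34.6%), many of these in 1 library. Fisher's exact test on the number of libraries with a peak, 8 against 8 and two-sided, was run over all 182575 regions with a peak in 2 to 14 libraries with Benjamini-Hochberg adjustment. Of 6573 gene-end regions that entered the test, 120 (1.83%) were called as more frequent in progenitors, where 3.06% of all regions were, and 57 (0.867%) more often in neurons, where 1.27% of all were. The calls took 3 forms in each direction: 37 regions were in 8 progenitor and 0 neuron libraries (exact adjusted p = 0.0118), 49 in 7 and 0, and 34 in 8 and 1 (exact adjusted p = 0.0323), and 12, 29 and 16 had the mirror patterns for neurons. The pattern of 8 against 0 was met at 0.17% of the gene-end and 0.613% of the other regions, and its mirror at 0.0553% and 0.176%. When each list was cut at its strongest peaks to the same covered length of 36.9 Mb, 83 progenitor and 103 neuron calls were made among gene ends, and 8 and 0 of them were among the original calls. In that setting, which also keeps the strongest peaks only, 1.55% of the gene-end regions tested were called in progenitors, below the 4.28% of all regions, and 1.92% in neurons, above the 1.56% of all. The order of gene ends and all regions thus turned in the neuron direction, and the cause was not tested. With permutations kept within days 0 passed, where the smallest exact p that this can give is 0.00154 and 496 and 282 regions had an unadjusted p below 0.05. Without progenitor day 120 replicate 2 the progenitor calls numbered 204, and without neuron day 40 replicate 2 the neuron calls 87.

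The calls were spread over starts and other ends much like the regions that were tested and not called. Of 102 progenitor calls of known strand, 37.3% lay at a start, of 42 neuron calls 45.2%, and of 4803 others 38.7%. No gene had calls of the same direction at more than 1 region. KISS1, which encodes kisspeptin, and ANGEL1 each had a region called in progenitors beside a different region called in neurons, a pair of genes chosen after their values were seen. At KISS1 the progenitor region lay inside the gene (chr1:204190740-204192197) and the neuron region 625 bases beyond its end (chr1:204188508-204189716). Peaks covered 539 to 1439 bases of the former in the 8 progenitor libraries and 301 bases in 1 neuron library, and 211 to 1209 bases of the latter in the 8 neuron libraries and none in progenitors.

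The 12 progenitor regions that lead by the size of the difference, and then by the bases covered, were all in 8 of 8 progenitor and 0 of 8 neuron libraries, so the groups do not overlap by the way they were ranked. They lay at MRPL58, HMGB1, NOX4, BRINP2, VIM, DHX8, SH3TC2, DACT2, DNMT3B, RTN4, TAAR2 with TAAR5, and ADH4. VIM encodes vimentin, the intermediate filament of radial glia. Its region (chr10:17238084-17239520) lay 491 bases beyond the gene's end, and peaks covered 1298 and 1141 bases of it in the day 40 libraries, 1134 and 1008 in those of day 60, 1373 and 1221 in those of day 90 and 469 and 347 in those of day 120. The day 120 libraries were thus the lowest, and every neuron library was at 0. The start of VIM, by contrast, was open in both populations, and the gene as a whole had an end peak in all 16 libraries.

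SH3TC2, a gene of endosomal recycling known from Schwann cells, had its start in such a region (chr5:149062483-149063569), which includes the window printed above. Covered bases were 960 and 769 in the day 40 libraries, then 975 and 992 (day 60), 970 and 997 (day 90), and 940 and 437 (day 120). These values were nearly even over the days, apart from the shortest list. The region at the trace amine receptor genes TAAR2 and TAAR5 (chr6:132616229-132617479), which holds the other printed progenitor window, covered 722 and 978, 922 and 590, 766 and 778, and 1101 and 799 bases over the same days, and those of day 120 were not below the rest. RTN4, which encodes the myelin-associated inhibitor Nogo, had a region 488 bases outside its start (chr2:55138319-55139382) covered by 650 to 1025 bases, and it was the 1 region of the 24 named that kept its call in lists of equal length.

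HMGB1, a chromatin architectural protein, and MRPL58, a peptidyl-tRNA hydrolase of the mitochondrial ribosome, were called at the end of the gene, with 488 to 2223 and 578 to 2338 covered bases. DNMT3B, a de novo DNA methyltransferase that is highly expressed in pluripotent cells, was called 574 bases inside its end (212 to 1229 covered bases). NOX4, an NADPH oxidase, was called 16 bases outside its start, with 543 and 678 bases (day 40), 1004 and 1174 (day 60), 2156 and 2254 (day 90), and 838 and 728 (day 120). Those values were highest at day 90 in both libraries, whose lists are also among the longest of the series.

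In neurons the 12 leading regions, all in 0 of 8 progenitor and 8 of 8 neuron libraries, lay at TSPEAR, NTSR1, SLC8A1, CPNE4, SOX11, ARG2, LOC124906010, KISS1, GPR61, DAAM1, CPA4 and ARHGAP19. NTSR1 encodes a receptor for the neuropeptide neurotensin. Its region covered the start (chr20:62708065-62709817), and peaks covered 1258 and 1497 bases in the day 40 libraries, then 441 and 964 (day 60), 1248 and 1380 (day 90), and 1209 and 663 (day 120). All 8 neuron libraries held it, with the lowest value at day 60. SLC8A1, a sodium and calcium exchanger that clears calcium from excitable cells, was open at the start (chr2:40511568-40513054) over 1068 and 411, 1487 and 1288, 1273 and 1355, and 1154 and 375 bases. The 2 genes share a pattern over libraries though their printed windows differ widely in CpG.

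SOX11, a transcription factor of young neurons, had a region across 1 of its ends (chr2:5700723-5701981) with 656 to 1157 covered bases in the 8 neuron libraries. TSPEAR (chr21:44709304-44711926) was covered over 2473 and 2619 bases (day 40), 2427 and 856 (day 60), and 550 to 1276 bases at days 90 and 120. CPNE4, a calcium-dependent membrane-binding protein, was called 903 bases inside its start (179 to 1356 bases), and GPR61, an orphan receptor of the brain, at its start (463 to 997 bases). These 4 regions had no peak in any progenitor library, and SOX11 had the narrowest range.

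**Figure D4:**
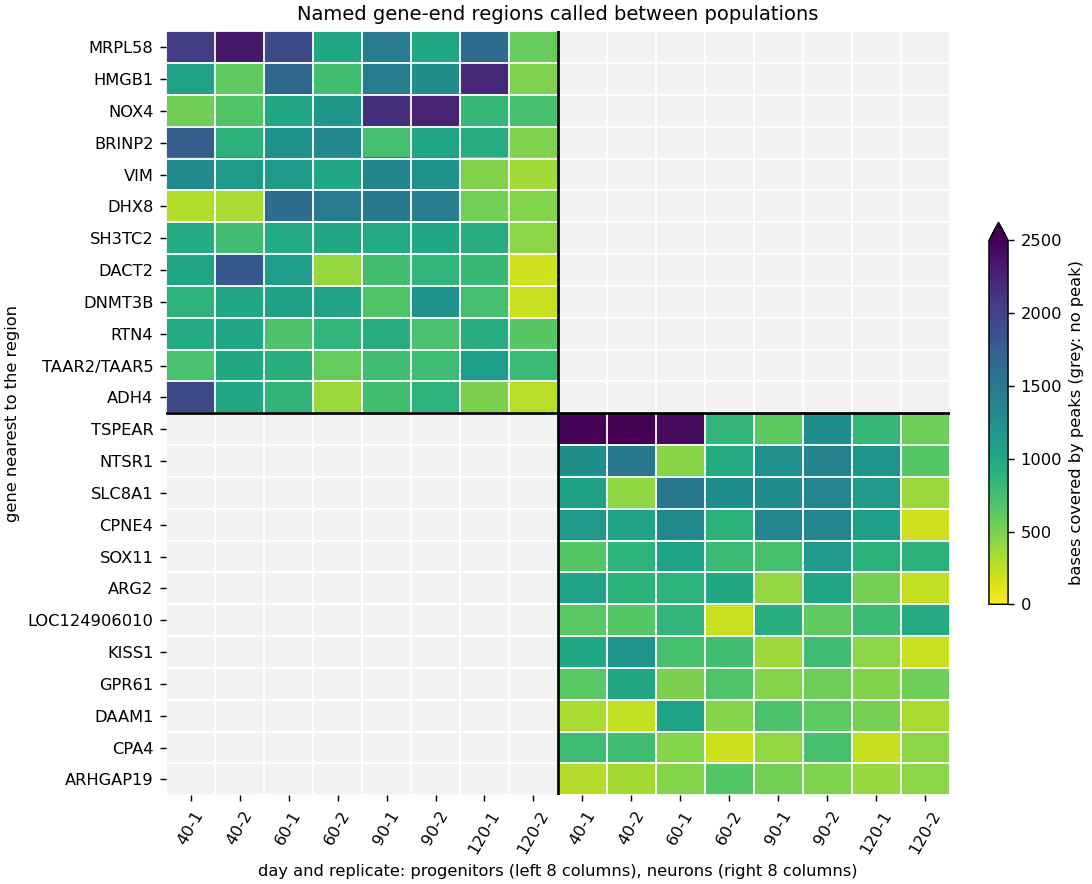
Bases covered by peaks (colour) in each library (columns, day and replicate) at the 24 named gene-end regions (rows) called between populations, where grey marks no peak. Each region is coloured in all 8 libraries of 1 population and grey in the other, by the ranking, and what varies is the shade within a row, as at TSPEAR, from 550 to 2619 bases.

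At the level of genes, 13 of 19970 had an end peak in 8 progenitor and 0 neuron libraries: C1orf94, ANKUB1, ADH4, SH3TC2, CSF1R, LOC124901373, TAAR5, TAAR2, DCSTAMP, COL17A1, OR51V1, CCDC196 and ACSBG1. The mirror pattern was met at 3 genes, SLC8A1, NTSR1 and ASB9.

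Marker genes of both populations were seldom told apart by presence at their ends. Of 20 radial glia genes, 15 had an end peak in all 16 libraries, among them PAX6, HES1 and HES5, and 1 (SLC1A3) in none. By gene, 3 of this list were open in more progenitor libraries and 1, TTYH1, in more neuron libraries (3 against 8). Of the 15 regions of these genes tested, 2 were called in progenitors and 0 in neurons. Of all gene-end regions tested, 1.83% and 0.867% were. The 2 were the VIM region above and a region across an end of SOX1, a close relative of SOX2 (chr13:112069894-112071854). SOX1 had another region open in every library, so the gene as a whole had a peak in all 16. At the called region the covered bases were 549 and 695 (day 40), 1961 and 608 (day 60), 901 and 844 (day 90), and 1103 and 0 (day 120), and every neuron library was at 0. The 12 outer radial glia genes gave 1 progenitor call among 2 regions tested, at ACSBG1, an acyl-CoA synthetase (8 against 0, 228 to 880 bases). FAM107A, another gene of this list, had a merged region at its start that was not called (8 against 4, exact adjusted p = 0.297). Peaks covered 165 to 2300 bases of it in progenitors and 180 to 298 in the 4 late neuron libraries. Those neuron peaks lay more than 1 kb from either end of the gene. By each library's own peaks within 1 kb of an end, FAM107A was open in 8 progenitor libraries and 1 neuron library, of day 60. PROM1, a radial glia gene for prominin, had a region inside its end in 0 progenitor and 6 neuron libraries (exact adjusted p = 0.08), all 6 of day 60 or later. The 13 Notch genes gave 1 progenitor call among 6 regions tested, at an end of the ligand JAG1 (8 against 0, 256 to 1362 bases).

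Neuronal lists gave no call by Fisher's exact test. Of the 12 pan-neuronal regions tested 0 reached an unadjusted p below 0.05, of 7 glutamatergic regions 1, of 7 vesicle release regions 0 and of 6 ion channel regions 1, both of these more often in neurons. Of the 16 pan-neuronal genes, 12 had an end peak in all 16 libraries, DCX among them. SCN1A, a sodium channel gene, had a region held by 2 progenitor and 8 neuron libraries (exact adjusted p = 0.08), and FEZF2 and TBR1, factors of deep-layer neurons, each had a region in 2 and 7 (exact adjusted p = 0.223).

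Lists of cell types outside the sort were examined in the same way, and their part in the results was not tested. Of 10 choroid plexus and cilia genes, 3 to 8 had an end peak in a progenitor library (median 7) and 2 to 7 in a neuron library (median 4). TTR, which defines choroid plexus, was open in 8 and 3 libraries, and KCNJ13 in 6 and 0. Of 11 oligodendrocyte lineage genes, 6 to 10 were open in progenitor libraries and 4 to 9 in neuron libraries, with MOG at 0 in all. Of 10 mesenchymal genes, 5 to 9 and 4 to 8 were open, with COL3A1 at 0 and COL1A2 at 7 and 1 libraries. Progenitor libraries thus held somewhat more end peaks of these types than neuron libraries, within overlapping ranges.

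Immune, vascular and pluripotent genes were examined likewise. Of 12 microglia and immune genes, 1 to 3 were open in progenitor libraries and 1 to 4 in neuron libraries, with AIF1, CD68, ITGAM and TYROBP at 0 in all 16. CX3CR1 was open in 5 progenitor and 7 neuron libraries, CSF1R in 8 and 0, C1QA in 1 and 5, and C1QB in 3 and 3. Of the 7 regions of this list tested 1 was called, at CSF1R. This region lay near the neighbouring PDGFRB (chr5:150112424-150113122), a gene of pericytes and mesenchyme. It was in 8 progenitor and 0 neuron libraries with 170 to 616 covered bases. Of 8 pluripotency genes, 0 to 3 were open in progenitor libraries and 1 to 3 in neuron libraries, with POU5F1, NANOG, DPPA2 and CRIPTO at 0. The DNMT3B region named above was the 1 call among the 5 regions of that list tested. Of 10 endothelial genes 3 to 5 and 4 to 5 were open, with PECAM1, VWF and TEK at 0. Of 11 genes of GABAergic neurons and the ventral telencephalon, 8 to 10 and 9 to 11 were open, and GAD1 was open in 0 and 4. Of 12 liver and muscle genes, 3 to 6 and 4 to 6 were open, with ALB, APOA2 and FGB at 0.

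The regions that all libraries hold can still differ in how far the peaks reach. For each of the 24797 regions present in all 16 libraries, of which 10739 were gene ends, limma compared log2 covered bases after subtracting each library's median, with Benjamini-Hochberg adjustment over all 24797. Covered bases reflect how wide the caller drew a peak and are not a signal height. At gene ends 427 regions (3.98%) were wider in progenitors, where 8.26% of all fitted regions were, and 790 (7.36%) were wider in neurons, where 7.26% were. The share wider in progenitors was thus lower at gene ends than the 11.5% among the fitted regions elsewhere, and the share wider in neurons stood near the background. Of the calls, 35.1% were wider in progenitors, and this split was 40.1% with total scaling (244 against 365 regions), 53.2% with no scaling (287 against 252) and, with another choice of peaks, 48.8% with lists of equal length (320 against 336). The 16 regions named for this contrast and SOX2 kept their call in each alternative that gave them a value. With lists of equal length 1 of the 16, CDH10, was still in all 16 libraries, and the other 15 and SOX2 had no value there.

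SOX21, a SOXB factor of neural progenitors, had the largest difference. Its region (chr13:94706033-94708870) lay 752 bases beyond the gene's end, and peaks covered between 2352 and 2816 bases in progenitors (median 2650.5) and between 324 and 1622 in neurons (median 610.5). No neuron library reached the lowest progenitor library. The log2 difference was 1.99 ± 0.22 (SE, limma adjusted p = 0.00034). Over the start of GRB10, an adaptor of the insulin receptor (chr7:50789939-50794065), progenitor values ran from 1389 to 4008 (median 3126) and neuron values from 461 to 1712 (median 966.5), so that 2 progenitor libraries, replicates 2 of days 60 and 120, lay inside the neuron range (log2 difference 1.46 ± 0.29, limma adjusted p = 0.0066). The other 6 were at FAM114A1 with TLR6, RFTN2, DMRT1, ZFHX4, TSC22D4 and PID1, with log2 differences of 1.44 to 1.70.

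CDH10, a cadherin of neuronal contacts, was wider in neurons over its start (chr5:24641984-24645415), with 384 to 954 covered bases in progenitors (median 786) and 1391 to 3160 in neurons (median 2212). The groups did not overlap, and the log2 difference was −1.60 ± 0.11 (limma adjusted p = 5.69e-05). VPS37B, a subunit of the ESCRT-I sorting complex, likewise ran from 385 to 1048 in progenitors and from 1202 to 2420 in neurons (−1.79 ± 0.14, limma adjusted p = 7.64e-05). NFASC, which encodes neurofascin of the axon initial segment, ran from 259 to 1187 and from 1009 to 3194, with 1 neuron day 120 library and 1 of day 60 inside the progenitor range (−1.35 ± 0.19, limma adjusted p = 0.00121). DMRTA2, a factor that patterns the dorsal telencephalon, was wider in neurons at a region 762 bases inside its end (168 to 2148 against 1548 to 2971 bases, −1.80 ± 0.28, limma adjusted p = 0.00203). ROBO3, a receptor of axon guidance, and ST8SIA3, a sialyltransferase of the brain, were also among the 8 largest, with log2 differences of −1.35 and −1.34.

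**Figure D5:**
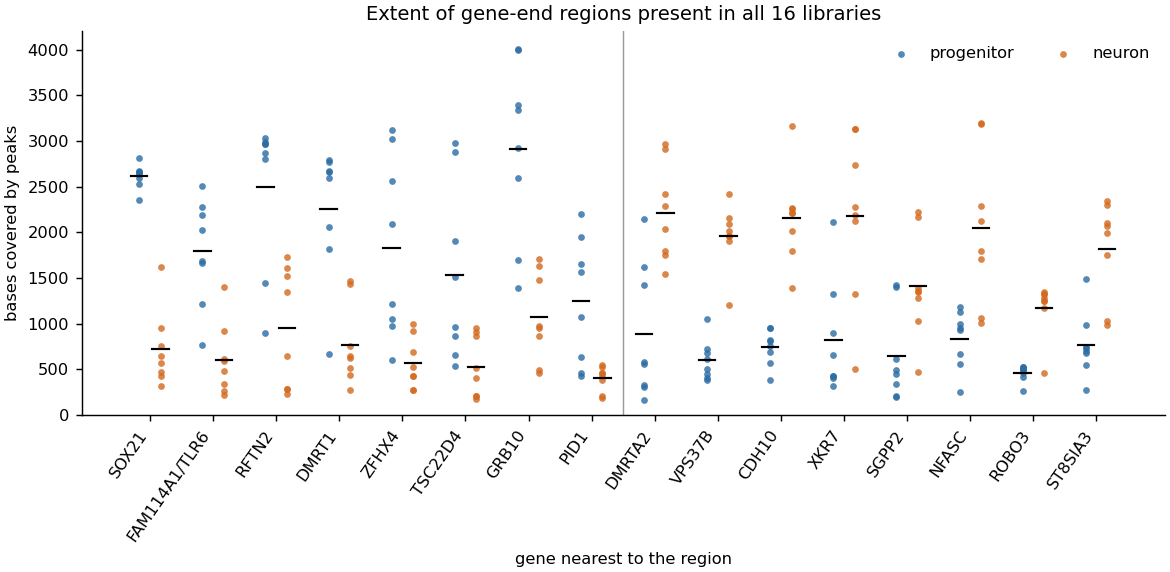
Bases covered by peaks (y axis) at 16 gene-end regions held by all 16 libraries, 8 named as wider in progenitors (left of the line) and 8 as wider in neurons (right), with 1 point per library and the mean of each population as a black bar. SOX21, VPS37B and CDH10 show no overlap between populations, while ranges overlap at GRB10, DMRTA2 and NFASC.

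Lists of cell type genes showed calls in both directions. Of 15 pan-neuronal regions in all 16 libraries, 6 were wider in neurons and the other 9 were not called, with a median log2 difference of −0.24 against −0.07 over all gene-end regions fitted. MYT1L, a neuronal fate factor, covered 1002 to 1322 bases in progenitors and 1471 to 2505 in neurons, without overlap (−0.86 ± 0.08, limma adjusted p = 0.000225), and GAP43, a growth cone protein, 945 to 3053 and 2364 to 3914 (−0.58 ± 0.09, limma adjusted p = 0.00222). Of 12 glutamatergic regions 6 were wider in neurons (median −0.35), among them SLC17A6, a vesicular glutamate transporter (−0.50). Of 13 vesicle release regions 4 were wider in neurons (median −0.27), among them SYT4 (−0.92) and RIMS1 (−1.03), and of 9 ion channel regions 3 were wider in neurons and 1 in progenitors, with SCN2A and SCN8A wider in neurons and KCNH7 in progenitors.

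Progenitor lists held calls in both directions. Of 17 radial glia regions, 4 were wider in progenitors and 1 in neurons (median 0.04). The 4 were SOX2, NES, SOX3 and EMX2, with log2 differences of 0.72, 0.63, 0.59 and 0.36, and the 1 was LHX2 (−0.74), a factor of cortical identity that is also on the upper-layer list. Of 8 outer radial glia regions 2 were wider in progenitors, MOXD1 (0.70) and LGALS3 (0.69), and of 14 cell cycle regions 2 were wider in progenitors and 1 in neurons, with CENPF at 1.0, CCNB2 at 0.51 and PCNA at −0.25. Of 14 intermediate progenitor and proneural regions 2 were wider in progenitors, PPP1R17 (0.87) and NEUROG1 (0.84), and 2 in neurons, NEUROD1 (−0.89) and NEUROG2 (−0.31), and of 7 astroglia regions 1 was wider in progenitors, GJA1 (0.87). Of 10 regions of deep-layer neuron genes 3 were wider in progenitors (LDB2, ZFPM2 and FOXP2, log2 differences 0.82, 0.55 and 0.42) and the rest were not called. Of 8 regions of GABAergic and ventral telencephalon genes 1 was wider in neurons, GAD2 (−0.36 ± 0.09, limma adjusted p = 0.0193). Without a call, SST (0.6), DLX2 (0.34) and DLX1 (0.23) leaned to progenitors, and SLC32A1 (−0.45) and GSX2 (−0.14) to neurons. Of 4 mesenchymal regions 1 was wider in progenitors, COL1A1 (1.08 ± 0.19, limma adjusted p = 0.00347), and those at ACTA2 (0.1 and 0.09) and TWIST1 (0.0) were not called. Of 2 endothelial regions CLDN5 was wider in neurons (−0.32 ± 0.08, limma adjusted p = 0.018), and KDR (0.12) was not called. The part of such cells in these results was not tested.

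At the 3 genes that carry or lend parts of the reporters, all 16 libraries held the region at the gene's start. SOX2 (chr3:181707759-181713259) covered 1334 to 4830 bases in progenitors (median 3553) and 1145 to 2440 in neurons (median 2014). Progenitors were higher apart from 2 libraries inside the neuron range, both replicates labelled 2, at days 60 and 120, and the log2 difference was 0.72 ± 0.14 (limma adjusted p = 0.00693). The EGFP cassette replaces the stop codon, which is not the annotated gene end and was not located here. Outside the other end of SOX2, 274 bases away, 1 library, progenitor day 120 replicate 1, held a region of 231 bases and the others none. SYN1, whose promoter was copied for dTomato, covered 300 to 647 bases in progenitors and 346 to 820 in neurons (−0.27 ± 0.16, limma adjusted p = 0.279), and PPP1R12C, the host of AAVS1, 259 to 1840 and 515 to 1896 (−0.39 ± 0.20, limma adjusted p = 0.203). Neither difference passed the threshold, and ranges overlapped at both.

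The widest regions held by all libraries were at GLI2 (7940 bases), SIX3 (7860), ACTB (7702), ZNF217 (7437) and FOS (7296). GLI2 is an effector of Hedgehog signalling, SIX3 a factor of the anterior forebrain and FOS an early response gene. At SIX3 the covered bases were 6949 and 3991 in progenitors at day 40 and 1107 and 239 at day 120, and in neurons 3148 and 3956 at day 40 and 339 and 1737 at day 120. In each population both day 120 values lay below both day 40 values. In each of the 5 regions the lowest of the 16 libraries was progenitor day 120 replicate 2. These values are a description with no test.

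Stage changed presence at few gene ends. A region was counted as late when all 4 libraries of days 90 and 120 of a population held it and none of days 40 and 60 did, and as early in the reverse case, without a test, since 4 against 4 cannot pass adjustment over so many regions. In progenitors 25 of the 18886 gene-end regions with a peak (0.132%) were late, where 0.795% of all regions with a peak in progenitors were, and 59 (0.312%) were early, where 0.737% were. In neurons 64 of 19364 (0.331%) were late, where 1.67% of all were, and 29 (0.15%) were early, where 0.361% were. Leaving out a library loosens the pattern, so these counts can then only stay or rise. The count of early regions in neurons was 167 without neuron day 60 replicate 2, and that of late ones in progenitors 101 without progenitor day 120 replicate 2.

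Among late progenitor regions, HEPACAM, a glial cell adhesion gene, was open over its start (chr11:124934882-124936449) with 934 and 462 bases at day 90 and 1548 and 475 at day 120, none earlier, and 306 bases in 1 neuron library of day 90. CD180 covered 1545 and 1435, then 1683 and 988 bases over its start, and was also open in 4 neuron libraries. Among early ones, NOG, which encodes the BMP antagonist noggin, had a region 672 bases outside the gene (chr17:56596283-56598765) with 2367 and 912 bases at day 40, 718 and 205 at day 60 and none later. It was found in 2 early neuron libraries too, at 261 and 217 bases. ZNF350, TNFSF15 and the neighbours SLFN12 and SLFN13 were open in the 4 early progenitor libraries and in no other of the 16.

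In neurons the late regions with the most covered bases were at FILIP1, PID1, FBN2, NCOA2, MIER1 and DACT1. FBN2, which encodes the microfibril protein fibrillin-2, was open over its end (chr5:128256968-128258748) with 989 and 780 bases at day 90 and 1654 and 1021 at day 120. PID1 was open 722 bases outside 1 end (chr2:229021765-229023251) with 1249 and 942, then 1428 and 1420 bases, in no progenitor library, and it was not called between populations by Fisher's exact test (exact adjusted p = 0.297). Of the 24 regions named for a day pattern, PID1 was the 1 that kept it both with 50% coverage and with lists of equal length; 4 lost it in 1 of these and 19 in both, among them HEPACAM, NOG, ZNF350, FILIP1 and CCNG2. The early regions were led by CCNG2, CBX5 and RPH3AL, each of which was also open in 4 to 7 progenitor libraries.

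TAS2R30, a bitter taste receptor gene, was the 1 region late in both populations (chr12:11133850-11134851), and none was early in both. It covered 781 and 637 bases at day 90 and 848 and 327 at day 120 in progenitors, and 990 and 783, then 992 and 978 in neurons, with 0 in all 8 early libraries. Of the 64 late neuron regions 23 were in no progenitor library, among them MTOR, FBXO32 and YWHAB. Of the 59 early progenitor regions 19 were in no neuron library. For the 25 late progenitor and 29 early neuron regions these counts were 7 and 1. The same was not counted over all regions, so these counts are not set against a background. By day, 461 of the 19364 gene-end regions with a peak in neurons were in both day 40 neuron libraries and no other neuron library. Over all regions this was 22641 of 237246, and the lists of that group covered 101 Mb on average. Absent from both day 120 progenitor libraries and in all other progenitor libraries were 418 of 18886 gene-end regions. Over all regions this was 6178 of 214785, and the lists of that group covered 61.0 Mb on average. The part of list length in these counts was not tested.

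Extent changed with stage at few gene ends. In progenitors 17 regions (0.158%) were wider late, where 0.782% of all fitted regions were, and 28 (0.261%) were narrower late, where 0.29% were. In neurons 32 (0.298%) were wider late, where 0.887% were, and 30 (0.279%) narrower, where 0.734% were. With no scaling the median over all fitted regions moved to −0.11 in both populations, and the calls to 0 wider and 7 narrower in progenitors and to 1 and 14 in neurons, while total scaling moved the neuron median to 0.15 and its calls to 29 and 8. Lists of equal length gave 18 wider and 7 narrower in progenitors. The direction of stage changes as a whole thus depends on scaling, and single regions below are named with this limit.

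The region between CYP7B1 and BHLHE22, the latter a factor of cortical projection neurons, was narrower in late progenitors (chr8:64584314-64587781). It covered 3247 and 3238 bases (day 40), 2228 and 1460 (day 60), 2155 and 2140 (day 90), and 331 and 183 (day 120), so that the lowest values were those of day 120. Neuron values stayed between 1652 and 2286. The log2 difference of late minus early was −1.60 ± 0.11 in progenitors (limma adjusted p = 0.000169) and kept its call in the 21 alternatives that gave a value. SLIT3, a secreted axon guidance cue, covered 3056 and 1838 bases at day 40 and 279 and 168 at day 120 over its start (−1.84 ± 0.29, limma adjusted p = 0.0173), with neuron values also lower late, at 3263 and 2611 against 739 and 680. SLIT3 lost its call in 5 of 21 alternatives, among them no scaling. CCDC178 was wider in late progenitors, from 538 and 554 bases at day 40 to 2034 and 1160 at day 120 (1.33 ± 0.14, limma adjusted p = 0.00316), and lost its call only with no scaling.

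In neurons GPC6, a heparan sulfate proteoglycan of the cell surface, widened from 271 to 524 bases in the early libraries to 914 to 1120 in the late ones (1.58 ± 0.26, limma adjusted p = 0.0156). The ranges did not overlap, and progenitor values were 517 to 969 bases throughout. GPC6 lost its call in 4 of 21 alternatives. These were no scaling and the fits without neuron day 40 replicate 2, day 90 replicate 1 or day 120 replicate 2. The shared start of KIAA0319L and NCDN, the latter a neuronal protein called neurochondrin, covered 737 to 1761 bases early and 1776 to 2261 late (1.05 ± 0.14, limma adjusted p = 0.0103). ARL3, a small GTPase of cilia, was narrower late over its end, from 1178 to 2168 bases to 286 to 1208 (−1.51 ± 0.20, limma adjusted p = 0.0107), with 1 late library above the lowest early one. The regions at KIAA0319L with NCDN and at ARL3 each lost the call only with no scaling.

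The change with stage differed between populations at 7 gene-end regions by the interaction term. It was larger in progenitors at 4 (0.0372%, where 0.0565% of all fitted regions were called) and smaller at 3 (0.0279%, where 0.0242% were). METTL8, an RNA methyltransferase, had the largest positive value, 1.58 ± 0.20 (limma adjusted p = 0.0332). Its region covered 1178 and 1022 bases at day 40 and 3251 and 2025 at day 120 in progenitors, and 3248 and 3000, then 1128 and 1062 in neurons. The order of the populations was thus opposite at the first and the last day. At DACH1, a transcription factor of the dachshund family, the values were 1715 and 1301, then 3230 and 1884 in progenitors and 3006 and 3174, then 1916 and 1961 in neurons (1.14 ± 0.16, limma adjusted p = 0.0429). EMX1, a marker of the dorsal telencephalon, covered 3118 to 3955 bases in all progenitor libraries up to day 90 and 1350 and 759 at day 120, while neurons stayed between 2127 and 3913 (−1.02 ± 0.16, limma adjusted p = 0.0494). CYP7B1 with BHLHE22 differed by −1.77 ± 0.15 (limma adjusted p = 0.00325). At EMX1, TRPC6 and CYP7B1 with BHLHE22 the low values are those of both progenitor libraries of day 120. Of these, replicate 2 has the shortest list, at 36.9 Mb, and replicate 1 covers 85.2 Mb. The part of list length was not tested. With no scaling none of the 7 passed. With total scaling CYP7B1 with BHLHE22 was the 1 of the 7 that passed. Over all alternatives that gave a value, the call was lost in 10 of 21 at METTL8, 10 of 22 at MDM1, 15 of 22 at AP3B2, 12 of 21 at DACH1, 14 of 21 at EMX1, 13 of 21 at TRPC6 and 1 of 21 at CYP7B1 with BHLHE22.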

How the data were processed

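ATAC-seq peak lists of 16 libraries were used. The authors made the lists with MACS2 2.1.2, BWA 0.7.17, SAMtools 1.9, Trim Galore 0.5.0 and Picard on hg38, per the submitters' processing notes, with settings not given in the sources used here; read numbers were not used. The authors deposited per-library broad peaks with a score, a fold enrichment ratio, and −log10 p-value and −log10 q-value columns; of these, only the −log10 values were used, to choose peaks in alternatives. Peaks elsewhere than on chromosomes 1 to 22 and X (95 to 387 a library) were left out. Gene ends are the outermost RefSeq boundaries, so internal starts fall outside, and the table also lists some genes of alternate scaffolds with scaffold positions. Covered bases are the bases of a region under a library's peaks. Tests used Python 3.11.15 with scipy 1.17.1 and R 4.3.3 with limma 3.58.1 (trend, 8 group means), at an adjusted p of 0.05, and were tested on simulated data. Named regions were the 12 per direction by difference in libraries and covered bases, 6 per day pattern, the 8 (populations) or 4 (stage) largest extents per direction, up to 4 per gene list, the 5 widest, and the reporter genes. All 250 list genes matched. Members and lists were chosen with earlier results of these data known. Deviations of same-numbered replicates were weakly correlated, from −0.0744 to 0.185 over 28 pairs of groups, and 2 were over 0.1. For the 4 pairs of populations at the same day they ran from −0.0744 to 0.15, and 1 was over 0.1. These values cannot show whether such libraries shared a batch or sort.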

Additional observations from a re-analysis of the deposited data

Results flagged for a closer look

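Of 56 groups of library values examined for a library far from the rest, 9 held one, where chance gives about 1 in 20 groups taken singly. The groups share libraries and are not independent, so this rate is not a test of the count. Progenitor day 120 replicate 2, the library with the shortest list, held 12160 regions (other progenitors 14398 to 15969), had 28.6% of its covered bases at gene ends (other late progenitors 21.2% to 21.8%) and had 90.2% of its held regions at gene starts (other progenitors 82.1% to 85.7%). Its covered bases also stood apart at DMRT1, with 671 (others 1817 to 2788), and at ROBO3, with 265 (others 422 to 532). Neuron day 60 replicate 2 held 13809 regions (other early neurons 15517 to 15694) and covered 1202 bases at VPS37B (other neurons 1902 to 2420). Neuron day 120 replicate 1 covered 461 bases at ROBO3 (others 1172 to 1345), and neuron day 40 replicate 2 covered 820 at SYN1 (others 346 to 543).

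The late minus early difference in log2 covered bases was unlike in progenitors and neurons by limma's interaction term at 7 regions. It was larger in progenitors by 1.58 at METTL8, 1.39 at MDM1, 1.24 at AP3B2 and 1.14 at DACH1, and it differed by −1.77 at CYP7B1 with BHLHE22, −1.02 at EMX1 and −0.98 at TRPC6.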

How the results depend on the processing

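The count of regions in all 16 libraries was 6406 with peaks of −log10 q of at least 5, 4111 where peaks had to cover 50% of the region, and 6691 with lists of equal length, each of which removes peaks by construction. Progenitor calls numbered 13 at 50% coverage (5 shared with the original calls), 51 where the gene-end base had to be covered, 37 when regions in 1 to 15 libraries were tested and 0 within days. Neuron calls numbered 32 at −log10 q of 5, 9 at 50% coverage (2 shared), 103 with equal lists, 37 within 500 bases, 24 at the gene-end base, 12 over 1 to 15 libraries and 0 within days. At 50% coverage 35 regions were early in progenitors, 40 late in neurons and 45 early in neurons. Signs turned for number held between populations (−314 with equal lists), percent of covered bases late minus early in neurons (−4.37, equal lists), and percent at starts between populations (−0.347 at −log10 q of 2), late minus early in progenitors (−0.0177, equal lists) and in neurons (−0.521, equal lists); none of these differences was called.

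Extent calls moved with total scaling to 244 wider in progenitors, 365 wider in neurons, 16 narrower late in progenitors, 8 narrower late in neurons and 0 with a larger stage difference; with no scaling to 252 wider in neurons, 0 wider and 7 narrower late in progenitors, 1 wider and 14 narrower late in neurons, and 0 and 0 stage differences, where limma had 173 at an unadjusted p below 0.05 in the first direction. With regions of at least 14 libraries they were 53 and 138 late in progenitors and 26 and 58 stage differences, with equal lists 336 wider in neurons and 7 narrower late in progenitors, and with 500 bases added 9 smaller stage differences. The cause was not tested.

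Leaving out each library in turn gave 10739 to 11584 regions in all libraries, 121 to 204 progenitor and 58 to 87 neuron calls, 26 to 101 late and 59 to 109 early in progenitors, and 69 to 141 late and 32 to 167 early in neurons. The count of regions in all libraries and the day counts can only stay or rise here, since fewer libraries have to match. Day counts of progenitors rose by over 1.5 times without day 60 replicate 1, either day 90 library or day 120 replicate 2. Those of neurons did so without day 40 replicate 2 or any library of days 60 and 90. Number held differed between populations by −93.1 to 451, and late minus early by −1349.4 to −168 and −1159.5 to −531. Percent of covered bases differed by −1.72 to −0.385, −2.92 to −0.438 and 0.239 to 3.33, and percent at starts by −0.539 to 0.656, −0.046 to 2.38 and 0.943 to 3.11. Extent calls ran from 243 to 557 and 416 to 1351 between populations (lowest without progenitor day 90 replicate 2, highest without progenitor day 120 replicate 1), 2 to 138 and 4 to 493 late in progenitors (without progenitor day 90 replicate 1 and day 120 replicate 1), 8 to 141 and 6 to 57 late in neurons (without neuron day 40 replicate 2 and day 60 replicate 1), and 0 to 23 and 1 to 260 for stage differences (highest without progenitor day 120 replicate 1). Most libraries moved the stage extents by over 1.5 times. With the replicate number as a block, calls were 120 and 57 by presence, 411 and 785 by extent, 14 and 25 late in progenitors, 28 and 26 late in neurons, and 3 and 3 for stage differences. Of the 24 regions named by presence, 23 lost their call with equal lists. Depth is unknown, so the limit it sets on absent peaks could not be given.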
